A study of Rattus norvegicus with 144 samples.

Results

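Livers of 4 male Sprague Dawley rats given AMG A by mouth at 30 mg/kg once a day and sampled on day 14 were compared with livers of 4 male Sprague Dawley rats of the same study given 0 mg/kg and sampled on the same day. The 8 arrays were taken by their titles, which name the compound, organ, dose, day and animal, out of 36 liver arrays of the AMG A study and 144 arrays in the whole series. The treated animals were numbers 3033, 3034, 3035 and 3036, and the controls were numbers 3009, 3010, 3011 and 3012, so that each array was a separate animal. All were 8 to 10 weeks old per the labels, which name no vehicle, and no allele or other agent. AMG A is known here only by its code name, and the series' design text describes its pharmacology as antiangiogenic. The remaining liver arrays of that study came from animals given 0, 3 or 30 mg/kg and sampled on day 1, day 4 or day 14, with 4 animals a group.

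As background, vessels grow and persist through vascular endothelial growth factors, which bind receptor tyrosine kinases on endothelial cells. VEGFA acts mainly through KDR and FLT1, and the angiopoietins act through TIE receptors. Liver is made largely of hepatocytes, which clear drugs with cytochrome P450 enzymes and lie along sinusoids lined by their own kind of endothelium. CYP1A2 is one such enzyme, active in hepatocytes around the central vein, and it is a classical target of the aryl hydrocarbon receptor (AhR), a transcription factor that binds planar aromatic compounds.

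All values are deposited scores from Affymetrix arrays. The authors standardised each probe set, so that 0 is its mean over all arrays of all organs and 1 unit is its standard deviation over them. A score below 0 therefore says only that the probe set lay below its mean over all arrays. Those arrays include livers given another compound, AMG B, and their controls, measured on another array type than the livers compared here. A score below 0 thus need not mean that other organs were brighter. A difference counts standard deviations, with no fold change behind it. Levels of different genes cannot be set against each other on this scale. The mean score of 18 hepatocyte markers ran from 0.978 to 1.07 on the 8 arrays, against -0.998 to -0.963 in adrenal and -0.979 to -0.942 in pancreas. Pancreas acinar markers lay at -0.436 to -0.431 in these livers, against 1.89 to 2.60 in pancreas. Adrenal and pancreas were measured on a different Affymetrix array type, so organ and array type cannot be told apart in these levels. Each array correlated with the others of its group at a median r of 0.733 to 0.751 across the 10411 genes at 30 mg/kg and 0.779 to 0.822 at 0 mg/kg. Number 3035 had the lowest array weight of all 36 (0.577, where 1 is average). Number 3034 stood apart in a set of genes that differ by sex in rat liver (8 genes, given with their values after the other results).

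Of 10411 genes tested, 38 differed between 30 and 0 mg/kg at an adjusted p under 0.05 (limma, two-sided, Benjamini-Hochberg), which is 0.365% of them. Of these, 24 rose (0.231% of genes tested) and 14 fell (0.134%). One of the 24 is listed under the placeholder LOC100909739 and is not described further. At an unadjusted p under 0.05 there were 1350 genes, 13.0% of those tested (7.22% higher and 5.74% lower). All 4 treated values lay on one side of all 4 control values in 34 of the 38 called genes, against 797 of all genes (7.66%). The 38 were chosen by p on these same arrays, so their separation follows in large part from that choice. Over all genes the median difference was 0.0062, with 51.9% of genes higher at 30 mg/kg. These shares are also the background for the gene lists below. With 0.365% of all genes called, a short list is likely to hold no call whatever its members. A count of 0 calls is therefore no result about a list.

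The called set depended strongly on single animals. It held 118 genes when number 3035 was left out, 33 of them shared with the 38. It held 7 without 3010, 11 without 3036, 13 without 3011 and 14 without 3034. Of the 38 genes, 5 were called in all 8 omissions: Cyp1a2, Mplkip, Siah2, Arhgap8 and Cd44. Of the other calls, Ptdss2 was kept in 7 omissions and the rest in 1 to 6.

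**Figure D1:**
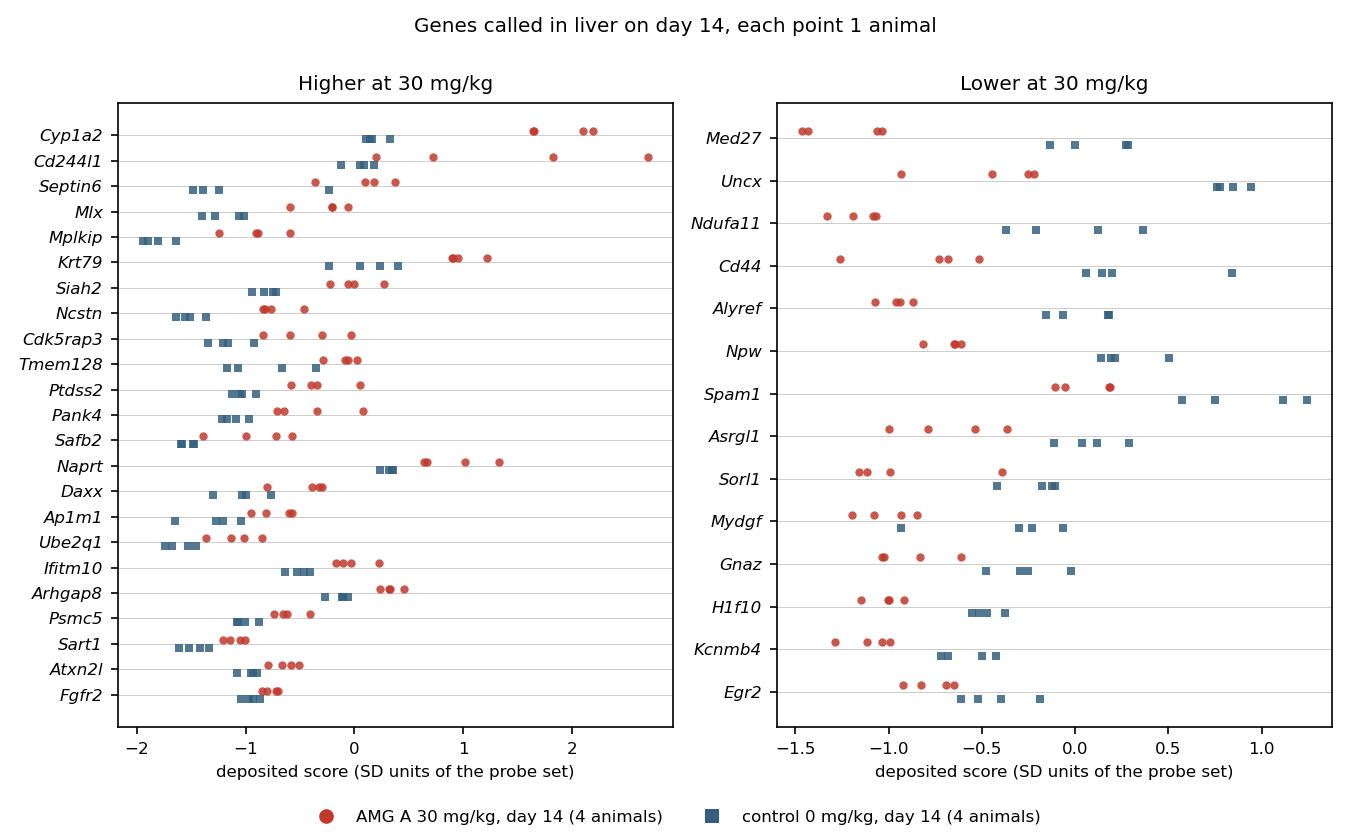
Deposited score (in SD units of the probe set, horizontal axis) of the 37 called genes with a name, 1 row per gene, genes higher at 30 mg/kg on the left and lower on the right. Circles are the 4 animals given 30 mg/kg and squares the 4 given 0 mg/kg. The groups are apart in nearly every row, and the gap in Cyp1a2, between 1.65 and 0.33, is among the widest on the left in score units.

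The promoters of Cyp1a2, Siah2 and Mlx are shown. Cyp1a2 had the smallest p, and Siah2 and Mlx are 2 of 5 called genes with an E-box in this window. Each is RefSeq sequence of build GRCr8 from 250 bases before to 50 bases after the annotated gene start, written 5′ to 3′ on the gene's strand, with the word found in capitals. The Cyp1a2 window is chr8:66978100-66978399 on the minus strand, and its capitals mark TATAAA, the core of a TATA box, starting at -39 from the gene start. The Siah2 window is chr2:145081626-145081925 on the minus strand, and its capitals mark CACGTG, an E-box, starting at -99. The Mlx window is chr10:86519636-86519935 on the plus strand, and its capitals mark CACGTG, starting at -70.
Cyp1a2: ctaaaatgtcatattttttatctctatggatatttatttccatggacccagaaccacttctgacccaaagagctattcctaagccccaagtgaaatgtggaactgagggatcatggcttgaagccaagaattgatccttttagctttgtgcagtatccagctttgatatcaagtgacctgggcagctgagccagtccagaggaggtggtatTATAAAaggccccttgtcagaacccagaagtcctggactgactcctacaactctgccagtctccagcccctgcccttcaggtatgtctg
Siah2: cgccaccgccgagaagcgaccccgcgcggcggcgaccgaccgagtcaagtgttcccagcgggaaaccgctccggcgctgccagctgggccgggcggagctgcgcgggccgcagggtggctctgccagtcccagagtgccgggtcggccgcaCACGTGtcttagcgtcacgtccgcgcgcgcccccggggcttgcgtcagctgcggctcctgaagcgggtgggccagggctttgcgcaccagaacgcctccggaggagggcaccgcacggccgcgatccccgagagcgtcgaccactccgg
Mlx: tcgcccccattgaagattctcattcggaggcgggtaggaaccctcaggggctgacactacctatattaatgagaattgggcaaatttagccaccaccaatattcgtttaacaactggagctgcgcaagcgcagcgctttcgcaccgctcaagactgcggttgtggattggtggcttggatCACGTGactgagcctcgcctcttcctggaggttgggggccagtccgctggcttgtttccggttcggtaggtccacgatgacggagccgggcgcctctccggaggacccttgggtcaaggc

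Promoters of 29 of the called genes were matched by symbol. On either strand, GCGTG, the core bound by AhR with its partner ARNT, was in 15 of the 29 (51.7%), against 31.1% of 27457 promoters of the same length. It was not in the Cyp1a2, Siah2 or Mlx window. CACGTG, which reads the same on both strands and neither holds nor lies within GCGTG, was in 5 of the 29 (17.2%), against 6.65% of all promoters. Those 5 were Siah2, Ube2q1, Sorl1, Mydgf and Mlx. TATAAA was in 4 of the 29 (13.8%), against 14.3% of all. A match is only these letters in this window, and the base composition of the promoters was not matched. The 27457 promoters also cover genes outside the 10411 tested, which could not be called. The shares are thus not set against a like background.

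Cyp1a2, which oxidises caffeine and aromatic amines, had the smallest p of the comparison. Its scores were 1.65, 2.11, 2.19 and 1.65 at 30 mg/kg, against 0.33, 0.16, 0.14 and 0.10 at 0 mg/kg. Every treated liver thus lay far above every control, and both groups were tight. The difference was 1.71 ± 0.11 (SE), with an adjusted p of 8.0e-12 by limma, and it ran from 1.62 to 1.80 when each animal was left out in turn. At 3 mg/kg on the same day Cyp1a2 was 0.40, 0.54, 0.78 and 0.73, in between the other doses and above all 4 controls. That low dose differed from the control by 0.43 (adjusted p = 0.19) and from 30 mg/kg by 1.28 (30 minus 3 mg/kg, adjusted p = 1.1e-08), with the same 3 mg/kg animals in both comparisons.

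Among the AhR genes measured, Cyp1a2 was the 1 that passed the test. Of 10 targets and partners of the receptor, 1 was called and 6 had a difference above 0, with a median of 0.043, against 0.0062 over all genes. Cyp1a1, the other classical target of AhR in liver, was -0.23, -0.21, -0.14 and -0.23 at 30 mg/kg, against -0.29, -0.28, -0.29 and -0.27 at 0 mg/kg. The groups did not overlap, but the difference was 0.078 (95% interval 0.0081 to 0.15, adjusted p = 0.32). The receptor itself, Ahr, averaged -0.46 ± 0.071 against -0.29 ± 0.19 in controls (SD, n = 4 each, adjusted p = 0.72). Nqo1, a quinone reductase, averaged -0.34 ± 0.34 against -0.47 ± 0.31 (SD, n = 4 each, adjusted p = 0.85). For scale, Cyp1a1 averaged 4.42 ± 0.48 in livers of the AMG B study at 60 mg/kg on day 14, against -0.30 ± 0.018 in its controls (SD, n = 4 each), and Cyp1a2 there averaged 1.49 ± 0.21, against 0.59 ± 0.30 in its controls. Those livers are in another table and received another compound at another dose, so these values are given side by side only. The unit of Cyp1a1 is its standard deviation over all arrays, the AMG B livers included, so a difference in AMG A liver is small on this scale. The limma fit draws the spread of each gene toward that of genes with a like mean score. Genes with a narrow range on this scale, Cyp1a1 among them, are thus called less readily. The lack of a call therefore does not show that Cyp1a1 was unchanged.

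Other genes of drug clearance gave no call, where 0.365% of all genes were called. Of 36 drug-metabolising enzymes and their receptors, 0 were called by limma, and the median difference was 0.0024 (0.040 without 3034). At an unadjusted p under 0.05, 2 were higher and 3 lower, against 7.22% and 5.74% of all genes. Cyp2c12, Cyp2c13 and Cyp2a2, 3 of those 5, are sex-dependent genes in which 3034 lay farthest from the other treated animals. Of 15 genes of hepatocytes around the central vein, Cyp1a2 was the 1 called, and the median was -0.071. Of 14 periportal genes 0 were called, with 1 higher and 1 lower at an unadjusted p under 0.05, and the median was 0.051. NRF2 targets, which respond to oxidants and electrophiles, gave 0 calls among 14 members, with 1 lower at an unadjusted p under 0.05.

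Siah2, Ube2q1 and Psmc5, which act in the ubiquitin and proteasome system, rose. Siah2, a ubiquitin ligase that targets the hydroxylases controlling hypoxia-inducible factors, was -0.22, 0.27, -0.054 and -0.0039 at 30 mg/kg, against -0.75, -0.94, -0.83 and -0.72 at 0 mg/kg. The groups were separate, and the difference was 0.81 ± 0.13 (SE, adjusted p = 0.0030). At 3 mg/kg Siah2 averaged -0.71 ± 0.073 (SD, n = 4), close to the controls, and the 30 mg/kg livers were above that dose by 0.71 (adjusted p = 0.018). Ube2q1, a ubiquitin-conjugating enzyme, was -1.13, -1.02, -1.37 and -0.85 at 30 mg/kg, against -1.46, -1.68, -1.74 and -1.53 at 0 mg/kg (adjusted p = 0.013). Treated animal 3035 lay only just above the highest control, and the call was kept in 5 of 8 omissions.

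Psmc5, an ATPase of the proteasome's regulatory particle, was -0.74, -0.65, -0.62 and -0.41 at 30 mg/kg, against -1.07, -1.08, -0.87 and -1.01 at 0 mg/kg. The groups did not overlap, and the call sat at the threshold (adjusted p = 0.0498, kept in 2 of 8 omissions). Psmc5 was also above the 3 mg/kg livers, by 0.53 (adjusted p = 0.016). Of 28 proteasome subunits measured, Psmc5 was the 1 called, 26 had a difference above 0 and 4 were higher at an unadjusted p under 0.05, with a median of 0.196. The mean score over the 28 was -1.07 to -0.785 in the 4 treated livers, against -1.28 to -1.11 in the controls. The median was 0.165 without 3034 and 0.262 without 3035. The rise was not particular to day 14. At the same dose the list's median was 0.309 on day 1 (26 of 28 above 0) and 0.057 on day 4 (19 of 28). Psmd6, a subunit of the regulatory particle, averaged -1.10 ± 0.17 against -1.67 ± 0.19 in controls, and Psmb1, a subunit of the core particle, averaged -0.87 ± 0.15 against -1.45 ± 0.20 (SD, n = 4 each, adjusted p = 0.18 and 0.28, both chosen after their values were seen).

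Hypoxia-inducible genes as a list gave 1 call, Siah2, among 31 measured members, with 18 above 0 and a median of 0.073. At an unadjusted p under 0.05, 5 were higher and 2 lower. Vegfa, the ligand that drives vessel growth, was -0.62, -0.63, -0.84 and -0.65 at 30 mg/kg, against -0.85, -1.05, -0.86 and -0.92 at 0 mg/kg. The treated livers lay just above the controls, with 3035 nearly level with the highest control, and the difference of 0.24 had an unadjusted p of 0.0034 and an adjusted p of 0.14. Bnip3l, a mitophagy receptor, lay on the other side, at -1.58 ± 0.23 against -1.34 ± 0.098 in controls (SD, n = 4 each, adjusted p = 0.16, chosen after its values were seen).

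Receptors of the vessel growth factors did not pass the test, as was so for all but 0.365% of genes. Kdr averaged -0.34 ± 0.14 at 30 mg/kg and -0.11 ± 0.25 at 0 mg/kg (SD, n = 4 each, adjusted p = 0.55). Flt1 was -1.20, -1.18, -0.96 and -1.17 at 30 mg/kg, against -0.85, -0.95, -0.94 and -0.91 at 0 mg/kg (adjusted p = 0.60). Its groups did not overlap, though 3035 lay only just below the lowest control. Flt4, the receptor of lymphatic vessels, averaged -0.66 ± 0.084 and -0.73 ± 0.019 at 30 and 0 mg/kg (SD, n = 4 each, adjusted p = 0.64). Of 12 ligands and receptors of the VEGF and angiopoietin families 0 were called, 6 were above 0, and 2, Vegfa and the lymphatic ligand Vegfc, were higher at an unadjusted p under 0.05. Of 20 endothelial markers 0 were called and 7 were above 0, with a median of -0.038, and at an unadjusted p under 0.05, 2 were higher (Pecam1 and Esam) and 2 lower (Tal1 and Podxl). The endothelial mean score was -0.876 to -0.687 at 30 mg/kg, against -0.687 to -0.528 at 0 mg/kg. Tal1, a transcription factor of blood and endothelium, was the largest single difference on that list in score units, at -1.90, -1.97, -1.71 and -0.78 in treated livers, against -0.63, -0.24, -0.034 and -0.17 in controls. All treated values were below all controls, and the adjusted p was 0.10. Of 8 sinusoidal endothelial markers 0 were called, and the median of 0.212 came from 5 genes above 0 and 3 below. Among them Gpr182, a receptor of sinusoidal endothelium, differed by 0.60 (adjusted p = 0.36) and the fatty acid transporter Cd36 by 0.51 (adjusted p = 0.16). The 3 below 0 were Dnase1l3 (-0.29, adjusted p = 0.38), Stab1 (-0.22) and Gata4 (-0.11). At an unadjusted p under 0.05, 2 were higher (Gpr182 and Cd36) and 1 lower (Dnase1l3).

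Mlx, the partner with which the glucose-sensing factors MLXIP and MLXIPL (ChREBP) bind E-boxes, rose. It was -0.20, -0.20, -0.60 and -0.063 at 30 mg/kg, against -1.06, -1.28, -1.40 and -1.01 at 0 mg/kg, with a difference of 0.92 ± 0.17 (SE, adjusted p = 0.013, kept in 5 of 8 omissions). The groups were separate by a wide margin. Of 17 genes of this carbohydrate-responsive list, Mlx was the 1 called, 11 were above 0 and 4 were higher at an unadjusted p under 0.05, with a median of 0.078. Of 17 fatty acid synthesis genes 0 were called, 15 were above 0 and the median was 0.093. Their mean score ran from -0.308 to -0.233 at 30 mg/kg, against -0.640 to -0.371 at 0 mg/kg. Acacb, an acetyl-CoA carboxylase, was 0.061, 0.17, 0.83 and 0.24 in treated livers, against -0.86, -0.90, 0.74 and -1.14 in controls (adjusted p = 0.35). Control 3011 lay among the treated animals.

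Naprt, Ptdss2 and Pank4 rose, and Ndufa11 fell. Naprt, which starts NAD synthesis from nicotinic acid, was 0.64, 1.33, 1.01 and 0.67 at 30 mg/kg, against 0.34, 0.32, 0.35 and 0.24 at 0 mg/kg (adjusted p = 0.040, kept in 2 of 8 omissions). Ptdss2, a phosphatidylserine synthase, was -0.40, 0.051, -0.58 and -0.35, against -1.13, -0.90, -1.05 and -1.03 in controls (adjusted p = 0.013, lost only without 3034 among the 8 omissions). Both genes were higher in every treated animal than in any control. Pank4, a relative of the kinases of coenzyme A synthesis, averaged -0.41 ± 0.36 against -1.11 ± 0.11 (SD, n = 4 each, adjusted p = 0.040, kept in 2 of 8 omissions). Among falls, Ndufa11, a subunit of mitochondrial complex I, was -1.09, -1.07, -1.19 and -1.33 at 30 mg/kg, against -0.37, -0.21, 0.36 and 0.12 at 0 mg/kg (adjusted p = 0.049, kept in 2 of 8 omissions). The treated values were close together and the controls spread.

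Mplkip, Safb2, Sart1, Atxn2l and Daxx rose. Mplkip, known for its loss in a form of human trichothiodystrophy, was -0.91, -0.59, -1.24 and -0.88 at 30 mg/kg, against -1.64, -1.90, -1.94 and -1.80 at 0 mg/kg (adjusted p = 0.0029). Its call was kept in all 8 omissions, yet its other 3 probe sets differed by 0.44, 0.10 and -0.38, none of them called. Safb2, a nuclear scaffold and RNA-binding protein, differed by 0.61 (adjusted p = 0.027), while its other probe set differed by -0.086. The splicing factor Sart1 averaged -1.10 ± 0.090 against -1.47 ± 0.12, and the RNA-binding protein Atxn2l averaged -0.64 ± 0.12 against -0.97 ± 0.078 (SD, n = 4 each, adjusted p = 0.043 and 0.034). The groups did not overlap for either gene, and the calls were kept in 2 and 1 of 8 omissions. Daxx, a histone chaperone, averaged -0.45 ± 0.23 against -1.02 ± 0.22 in controls (SD, n = 4 each, adjusted p = 0.030), with treated animal 3035 at -0.80 inside the control range.

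Med27, a subunit of the Mediator complex that links transcription factors to RNA polymerase II, had the largest fall in score units, which is not a ranking of fold changes. It was -1.43, -1.06, -1.04 and -1.47 at 30 mg/kg, against -0.13, 0.28, 0.27 and 0.00082 at 0 mg/kg (difference -1.35 ± 0.29, SE, adjusted p = 0.033). The groups lay far apart, but the call was kept in only 2 of 8 omissions, and on day 4 the same dose gave a difference of 0.45 in the other direction. Of 24 Mediator subunits Med27 was the 1 called, and 16 were above 0, with a median of 0.074. Alyref, an mRNA export factor, was -0.96, -1.07, -0.94 and -0.87, against -0.16, 0.18, -0.066 and 0.18 in controls (adjusted p = 0.033), and its other probe set differed by -0.056. H1f10, a linker histone, averaged -1.02 ± 0.096 against -0.48 ± 0.077 in controls (SD, n = 4 each, adjusted p = 0.029).

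The transcription factors Uncx and Egr2 fell. Uncx, a homeodomain factor, was -0.25, -0.22, -0.93 and -0.45 at 30 mg/kg, against 0.78, 0.76, 0.94 and 0.84 at 0 mg/kg (difference -1.29 ± 0.26, SE, adjusted p = 0.022, kept in 5 of 8 omissions). The controls were close together and far above every treated liver. Egr2, an immediate early zinc finger factor, was -0.65, -0.83, -0.69 and -0.92, against -0.61, -0.52, -0.39 and -0.19 in controls (adjusted p = 0.045), with the groups nearly touching. Of 23 immediate early genes Egr2 was the 1 called, 11 were above 0, and the median was -0.0035.

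Cd44 and Spam1 fell, and Fgfr2 rose. Cd44, the receptor for hyaluronan, was -1.26, -0.73, -0.51 and -0.68 at 30 mg/kg, against 0.20, 0.14, 0.059 and 0.84 at 0 mg/kg (difference -1.11 ± 0.21, SE, adjusted p = 0.013). The groups were well apart and the call was kept in all 8 omissions, but the other Cd44 probe set differed by 0.067. The 3 mg/kg livers averaged -0.63 ± 0.094 for Cd44 (SD, n = 4), near the 30 mg/kg livers, and their own difference from the controls was -0.94 (adjusted p = 0.14). Spam1, a hyaluronidase known from sperm, also fell, at 0.19, -0.11, -0.055 and 0.18, against 0.57, 1.12, 1.24 and 0.75 in controls (adjusted p = 0.013). Its 3 mg/kg mean of 0.17 ± 0.18 (SD, n = 4) was likewise near the 30 mg/kg mean. Fgfr2, a fibroblast growth factor receptor, rose by the smallest amount called in score units, 0.19 (adjusted p = 0.042), and its other 4 probe sets differed by -0.029 to 0.24.

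Arhgap8, a GTPase-activating protein, was 0.32, 0.45, 0.32 and 0.23 at 30 mg/kg, against -0.10, -0.11, -0.27 and -0.054 at 0 mg/kg (difference 0.47 ± 0.081, SE, adjusted p = 0.0091). No treated animal came near a control, and the call was kept in all 8 omissions. Septin6, a filament-forming GTPase, averaged 0.072 ± 0.31 against -1.09 ± 0.58 (SD, n = 4 each, adjusted p = 0.045), with control 3012 at -0.23 inside the treated range. Krt79, a type II keratin, was 1.22, 0.91, 0.89 and 0.95, against 0.23, 0.050, -0.23 and 0.40 in controls (adjusted p = 0.029, kept in 3 of 8 omissions). Of 14 keratins it was the 1 called.

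Cd244l1, an immune receptor gene by its name, was 0.20, 1.83, 2.70 and 0.72 at 30 mg/kg, against -0.12, 0.18, 0.088 and 0.055 at 0 mg/kg (adjusted p = 0.047). Animals 3034 and 3035 were farthest above the controls and 3033 was just above the highest, and the other probe set of this gene differed by -1.12. Gnaz, a G protein alpha subunit, averaged -0.88 ± 0.20 against -0.26 ± 0.19, and Kcnmb4, an auxiliary subunit of BK potassium channels, averaged -1.11 ± 0.13 against -0.58 ± 0.14 (SD, n = 4 each, adjusted p = 0.029 and 0.025). The neuropeptide gene Npw was -0.65, -0.82, -0.64 and -0.61, against 0.14, 0.51, 0.19 and 0.22 in controls (adjusted p = 0.013, kept in 6 of 8 omissions).

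Ncstn, Ap1m1, Cdk5rap3 and Tmem128 rose. Ncstn, a subunit of the gamma-secretase protease, was -0.82, -0.84, -0.76 and -0.46 at 30 mg/kg, against -1.51, -1.64, -1.36 and -1.56 at 0 mg/kg (adjusted p = 0.022, kept in 6 of 8 omissions). Ap1m1, a subunit of the AP-1 clathrin adaptor, averaged -0.73 ± 0.18 against -1.29 ± 0.26 in controls, and Cdk5rap3, a cofactor of protein UFMylation at the endoplasmic reticulum, averaged -0.44 ± 0.35 against -1.16 ± 0.17 (SD, n = 4 each, adjusted p = 0.023 and 0.013). The groups did not overlap for any of these genes. Tmem128, a membrane protein, averaged -0.10 ± 0.14 at 30 mg/kg and -0.81 ± 0.38 at 0 mg/kg (SD, n = 4 each, adjusted p = 0.029), and the 3 mg/kg livers were already at -0.13 ± 0.11.

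Sorl1, a sorting receptor of endosomes, and Mydgf, a secreted factor that resides in the secretory pathway, fell. Sorl1 averaged -0.91 ± 0.36 against -0.21 ± 0.14 in controls, and Mydgf averaged -1.01 ± 0.15 against -0.38 ± 0.38 (SD, n = 4 each, adjusted p = 0.043 and 0.029). In each gene 1 animal lay inside the other group's range, treated animal 3035 for Sorl1 and control 3009 for Mydgf. Of the 5 other Sorl1 probe sets 4 were lower at 30 mg/kg and 1 was higher. Asrgl1, an asparaginase, gave contrary results: the probe set used here was lower by 0.75 (-0.67 ± 0.28 against 0.083 ± 0.17, SD, n = 4 each, adjusted p = 0.044), and another was higher by 1.70 (1.09 ± 0.64 against -0.61 ± 0.57, adjusted p = 0.030 over all probe sets). The direction of Asrgl1 is therefore not settled. In all, 10 of the called genes had 20 other probe sets, of which 12 had the same sign and 1 was called.

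Endoplasmic reticulum chaperones and other genes of the unfolded protein response gave 0 calls among 19, with 16 above 0, 3 higher at an unadjusted p under 0.05 and a median of 0.171. Hspa5, the main chaperone of the endoplasmic reticulum, was -0.74, -0.72, -0.60 and -0.77 at 30 mg/kg, against -1.34, -0.98, -1.15 and -1.14 at 0 mg/kg (adjusted p = 0.33). Its groups did not overlap, although the list's mean score did, at -0.710 to -0.558 and -0.955 to -0.592 for 30 and 0 mg/kg. At 3 mg/kg the list's median difference from control was -0.064, with 4 of 19 above 0. At 30 mg/kg it was 0.174 on day 1 (15 of 19 above 0) and 0.109 on day 4 (14 of 19).

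Interferon-inducible genes gave 1 call among 25, Ifitm10, whose place there rests on its family name. Ifitm10 was -0.17, -0.034, 0.22 and -0.11 at 30 mg/kg, against -0.63, -0.46, -0.53 and -0.40 at 0 mg/kg (difference 0.48 ± 0.10, SE, adjusted p = 0.029, kept in 2 of 8 omissions). All treated animals were above all controls. Of the 25 genes 18 were above 0, with a median of 0.114, and Tap2, a peptide transporter of antigen presentation, averaged 0.34 ± 0.21 against -0.22 ± 0.20 in controls (SD, n = 4 each, adjusted p = 0.098, chosen after its values were seen).

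**Figure D2:**
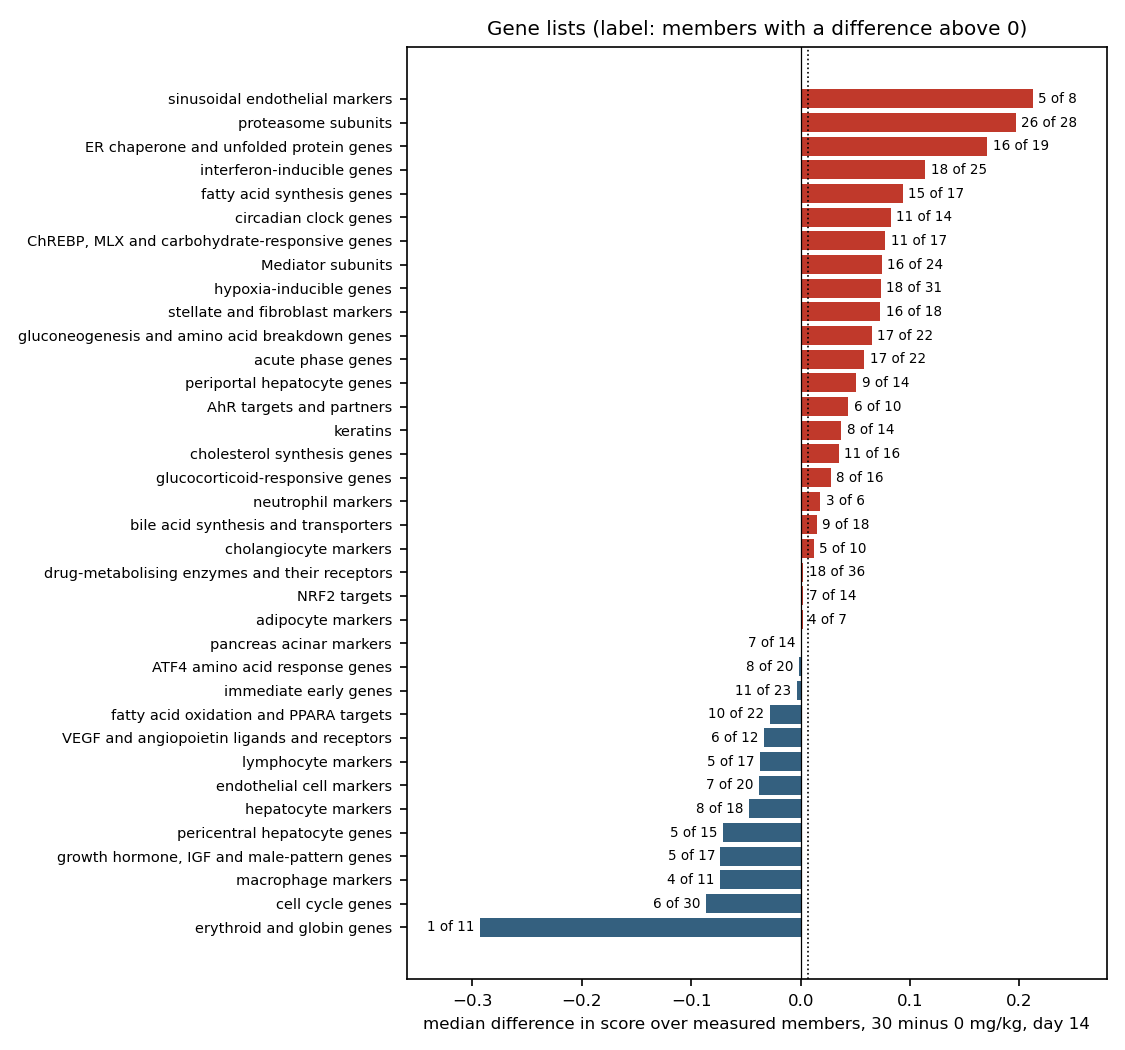
Median difference in deposited score between 30 and 0 mg/kg on day 14 over the measured members of each of 36 gene lists (horizontal axis, 30 minus 0 mg/kg), with the number of members above 0 written beside each bar. The dotted line is the median over all genes, 0.0062. Sinusoidal endothelial markers (0.212, 8 genes) and proteasome subunits (0.196, 28 genes) are at the upper end, and erythroid genes (-0.294, 11 genes) at the lower.

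The list medians given in the text that changed sign or moved by over 1.5 times without 3034 or 3035 were as follows. Without 3035 they were 0.113 for sinusoidal endothelial markers, 0.064 for interferon-inducible genes, 0.045 for hypoxia-inducible genes, 0.024 for periportal genes, -0.015 for AhR genes, -0.015 for immediate early genes, -0.0054 for drug-metabolising genes, 0.150 for fatty acid synthesis and 0.118 for Mediator subunits. Without 3034 they were 0.048 for hypoxia-inducible genes, 0.083 for AhR genes, 0.040 for drug-metabolising genes, -0.024 for endothelial markers and -0.053 for cell cycle genes.

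Erythroid and globin genes had the lowest list median, -0.294, with 1 of 11 above 0 and 0 called. Hbb, the adult beta globin, was -0.15, 0.68, 0.78 and 0.17 at 30 mg/kg, against 1.36, 1.30, 1.45 and 1.06 at 0 mg/kg (adjusted p = 0.33). Ahsp, the chaperone of alpha globin, averaged -0.83 ± 0.48 against -0.03 ± 0.18 in controls (SD, n = 4 each, adjusted p = 0.11). The mean score over the list was -0.364 to -0.042 in treated livers and 0.029 to 0.244 in controls, so these groups did not overlap, while the 3 mg/kg livers ran from -0.246 to 0.975. On day 1 the list's median for 30 minus 0 mg/kg was 0.296, on the opposite side, and on day 4 it was -0.383. In whole liver, fewer cells of a type and less RNA per cell cannot be told apart, and the part of blood left in the organ was not tested.

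Cell cycle genes gave 0 calls among 30. Only 6 were above 0, 6 were lower at an unadjusted p under 0.05, and the median was -0.087. Birc5, an inhibitor of apoptosis made in dividing cells, averaged -1.30 ± 0.48 at 30 mg/kg and -0.55 ± 0.47 at 0 mg/kg (SD, n = 4 each, adjusted p = 0.43), and Ube2c, a mitotic ubiquitin-conjugating enzyme, averaged -0.46 ± 0.32 and 0.13 ± 0.44 (adjusted p = 0.31). Both genes overlapped between the groups, as did the mean score of the list.

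Markers of other cells of the liver gave 0 calls among 18 stellate and fibroblast, 11 macrophage, 17 lymphocyte, 6 neutrophil and 10 cholangiocyte genes. Stellate markers lay higher in 16 of 18, with a median of 0.073 and mean scores of -0.649 to -0.532 at 30 mg/kg, against -0.688 to -0.654 at 0 mg/kg. Macrophage markers were lower in 7 of 11, with mean scores of -0.154 to 0.514 and -0.053 to 0.523 that overlapped. Neutrophil markers were split, with 3 of 6 above 0 and 3 below. At an unadjusted p under 0.05, 1 of them was higher (S100a9) and 1 lower (Mmp8, by -0.36, adjusted p = 0.33). The neutrophil gene S100a9 was -0.40, 0.37, 1.74 and 0.25 in treated livers, against 0.17, -0.27, -0.52 and -0.36 in controls, with 3035 the highest by far (adjusted p = 0.25). The acute phase gene Orm1 was 1.26, 1.31, 1.63 and 1.14, against 0.94, 0.74, 0.63 and 0.77 in controls (adjusted p = 0.13), with no overlap. Of 22 acute phase genes 17 were above 0 and 0 called, and the part of these cells in the called genes was not tested.

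Bile acid genes were mixed, with 0 called among 18 and 9 above 0. Abcg5, a sterol exporter, was -0.13, -0.18, -0.021 and 0.35 at 30 mg/kg, against 1.89, 0.79, 1.09 and 0.92 at 0 mg/kg (adjusted p = 0.15). Slc27a5, the bile acid CoA ligase, was 0.73, 1.73, 1.43 and 0.97, against 0.29, 0.63, 0.52 and 0.57 in controls (adjusted p = 0.23). In both genes the groups were fully separate.

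The remaining lists gave 0 calls each, where 0.365% of all genes were called. They were cholesterol synthesis (11 of 16 above 0), fatty acid oxidation (10 of 22), gluconeogenesis and amino acid breakdown (17 of 22), ATF4 targets (8 of 20), the circadian clock (11 of 14), glucocorticoid-responsive genes (8 of 16) and growth hormone and male-pattern genes (5 of 17). Adipocyte markers were above 0 in 4 of 7 and pancreas acinar markers in 7 of 14. Hepatocyte markers were above 0 in 8 of 18, with 1 higher (Ass1) and 4 lower (Apoa1, Apoc3, Apoh and Ahsg) at an unadjusted p under 0.05, against 7.22% and 5.74% of all genes, and a median of -0.048.

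The same dose on earlier days had its own treated and control animals. On day 1, 36 genes were called (0.346% of those tested) and on day 4, 4 genes (0.0384%). Of the 38 genes called on day 14, 35 had the same direction on day 1 and 33 on day 4, against 63.2% and 61.5% of all genes. With an unadjusted p under 0.05 in the same direction there were 18 on day 1 and 16 on day 4, against 10.1% and 8.01% of all genes. Their median size was 0.712 on day 14, 0.288 on day 1 and 0.272 on day 4. The genes were called for their size on day 14, so smaller sizes on other days follow in part from that choice.

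Cyp1a2 was the only gene of the 38 called on all 3 days. It averaged 2.20 ± 0.12 at 30 mg/kg against 0.32 ± 0.13 at 0 mg/kg on day 1, 1.40 ± 0.14 against 0.39 ± 0.11 on day 4 and 1.90 ± 0.29 against 0.18 ± 0.10 on day 14 (SD, n = 4 each). Its day 14 difference exceeded that of day 4 by 0.71 (95% interval 0.40 to 1.02, unadjusted p = 6.4e-05, adjusted p = 0.50) and lay below that of day 1 by 0.17 (interval of day 14 minus day 1, -0.48 to 0.14). Ifitm10 was also called on day 1, when it averaged 0.34 ± 0.25 against -0.59 ± 0.055 (SD, n = 4 each, adjusted p = 3.1e-06), and its day 4 difference was 0.34 (adjusted p = 0.23). Siah2 differed by 0.14 on day 1 and 0.20 on day 4 (adjusted p = 0.70 and 0.64). The Siah2 difference on day 14 exceeded that of day 1 by 0.67 (interval 0.29 to 1.04) and that of day 4 by 0.61 (0.23 to 0.99), with adjusted p of 0.59 and 0.84. Cyp1a2 and Siah2 were picked by their day 14 calls on these same arrays. Their intervals therefore lean toward a larger difference on day 14. Tested over all genes with limma, the change in difference gave 0 calls from day 1 to 14 and 0 from day 4 to 14, while 489 (4.7%) and 520 (4.99%) had an unadjusted p under 0.05. Those shares are near what that threshold gives where nothing changed.

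**Figure D3:**
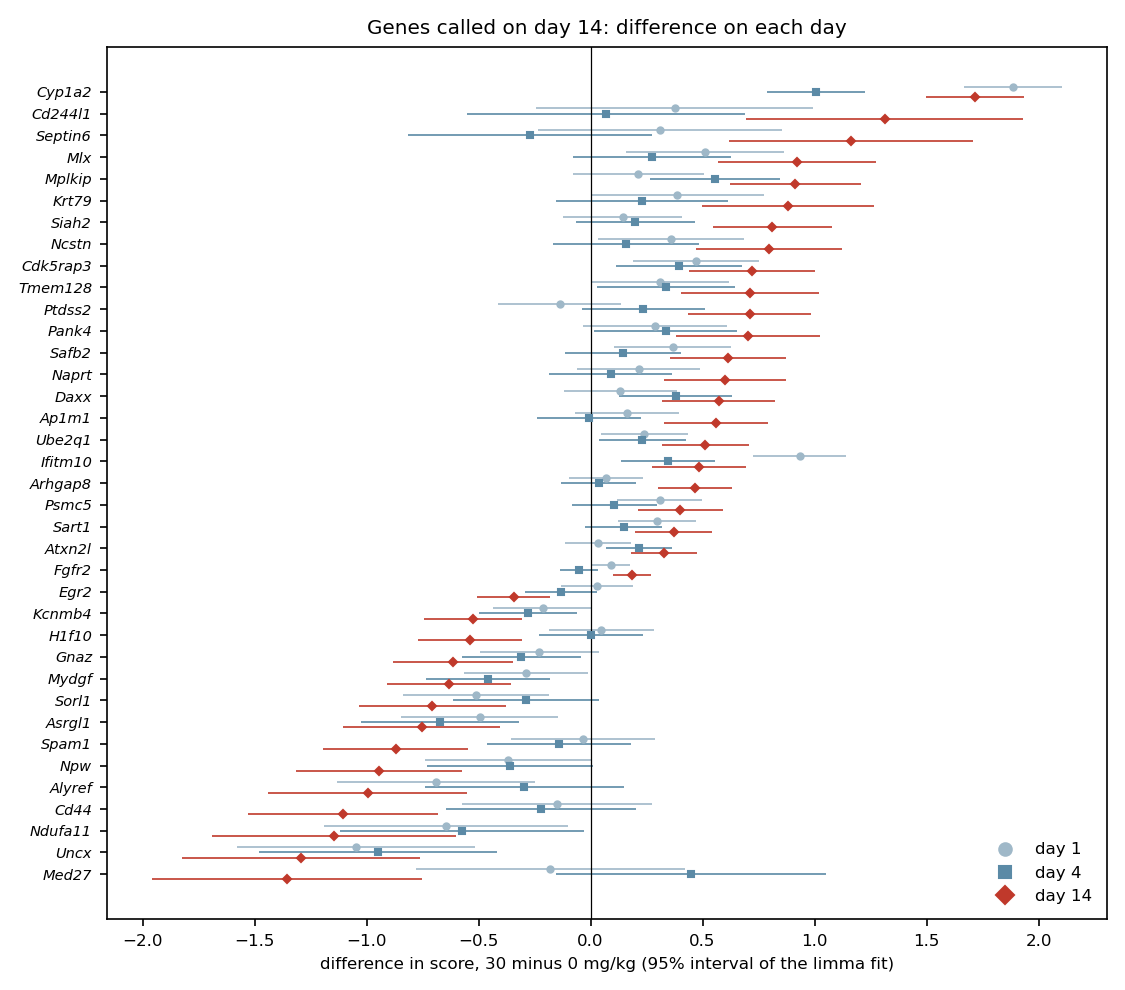
Difference in deposited score between 30 and 0 mg/kg on days 1, 4 and 14 (horizontal axis, 30 minus 0 mg/kg) for the 37 named genes called on day 14, with bars for the 95% interval of the limma fit. Day 14 lies farthest from 0 for most genes, and Cyp1a2 (1.88 on day 1) and Ifitm10 (0.93 on day 1) are the 2 that lie farther out on day 1.

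**Figure D4:**
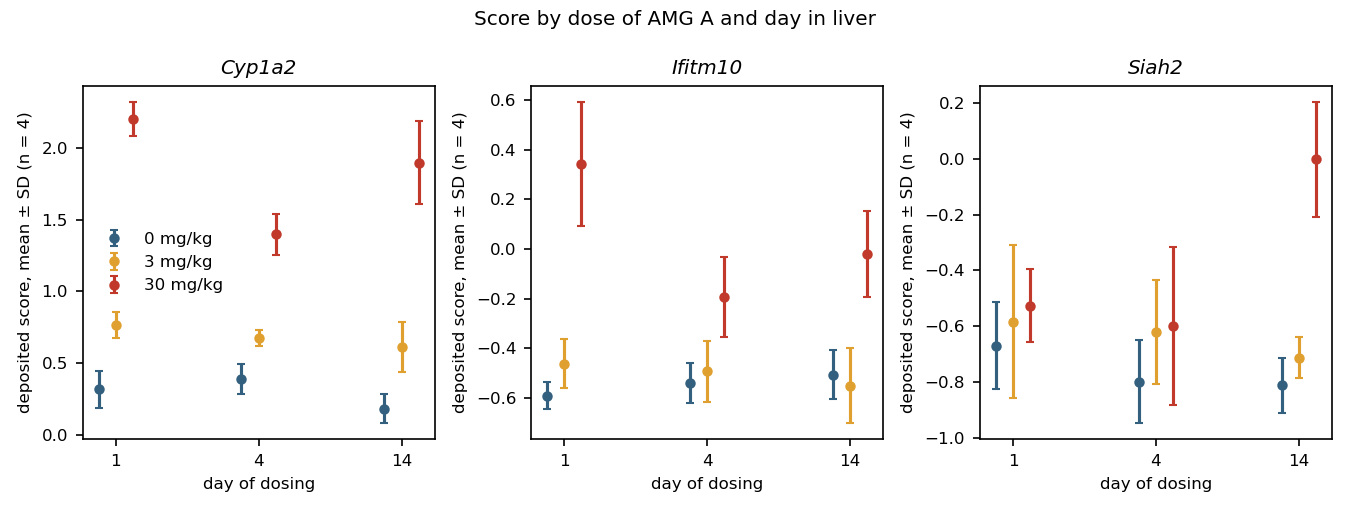
Mean deposited score with SD (vertical axis, 4 animals a group) of Cyp1a2, Ifitm10 and Siah2 in liver by day of dosing, with 0, 3 and 30 mg/kg of AMG A side by side. Cyp1a2 at 30 mg/kg averages 2.20, 1.40 and 1.90 on days 1, 4 and 14, while Siah2 at 30 mg/kg stands apart on day 14, the day by which it was chosen.

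The genes with the smallest p on day 1 and day 4, besides Cyp1a2 and Ifitm10, were not called on day 14. On day 1 Ghrhr, which binds growth hormone-releasing hormone in the pituitary, averaged -0.77 ± 0.17 at 30 mg/kg against 0.16 ± 0.32 at 0 mg/kg (SD, n = 4 each, adjusted p = 0.0015), and on day 14 it differed by -0.51 (adjusted p = 0.10). On day 4 Chac1, a glutathione-degrading enzyme, differed by -0.46 (adjusted p = 0.0071) and Wdr59, of the GATOR2 complex that signals amino acids to mTORC1, by 0.97 (adjusted p = 0.036). On day 14 those genes differed by -0.22 and 0.58 (adjusted p = 0.17 and 0.14).

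At 3 mg/kg on day 14, limma called 0 genes against control, with 824 (7.91%) at an unadjusted p under 0.05. Over the 38 genes the median size of the difference from control was 0.258. These comparisons share the day 14 controls with the one that chose the genes. Directly between 30 and 3 mg/kg, 13 genes were called (0.125%), 12 of them higher (0.115%), with Cyp1a2, Coprs and Psmc5 at the smallest p. Coprs, a cofactor of the arginine methyltransferase PRMT5, averaged -0.999 ± 0.070 at 30 mg/kg and -1.45 ± 0.082 at 3 mg/kg (SD, n = 4 each, adjusted p = 0.016), and it was not called against 0 mg/kg (adjusted p = 0.20).

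Over the 9 group means of liver in the AMG A study, the genes most like Cyp1a2 were Ifitm10 (Pearson r 0.958), Ncaph2 (0.949) and Podxl2 (0.944), as a description over 3 doses and 3 days. Ncaph2, a condensin II subunit, differed by 0.23 on day 14 (adjusted p = 0.36), and Podxl2, a sialomucin of the cell surface, by 0.34 (adjusted p = 0.31).

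The 38 genes were also read in other organs, as a description. In adrenal and pancreas of the AMG A study at 30 against 0 mg/kg on day 14, 19 and 14 of them had the direction seen in liver, against 50.2% and 47.1% of all genes. In liver of the AMG B study at 60 against 0 mg/kg on day 14, 24 did, against 51.9% of all genes. Cyp1a2 averaged -0.92 ± 0.005 in treated adrenal and -0.92 ± 0.0021 in control adrenal, and -0.92 ± 0.0095 in treated pancreas and -0.91 ± 0.013 in control pancreas (SD, n = 4 each). It thus sat at the low end of its scale in both organs at either dose. Siah2 averaged -0.98 ± 0.087 in treated and -0.56 ± 0.15 in control adrenal, the opposite direction to liver. Arhgap8 averaged 2.22 ± 0.66 in livers at 60 mg/kg of AMG B, against 1.01 ± 0.38 in their controls, the same direction as here.

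One treated animal, 3034, carried a pattern of sex-dependent liver genes unlike every other liver of the AMG A study. In rats the cytochrome Cyp2c12, the plasma protein A1bg and the sulfotransferase Sult2a6 are known as female-pattern genes, while Cyp2c11, Cyp2c13, Cyp2a2, Cyp3a2 and Hsd3b5 are known as male-pattern genes. All animals are labelled male, and these genes were chosen after their values were seen. A1bg was 10.2 in 3034, against -0.65 to 2.61 on the other 35 arrays, Cyp2c12 was 4.69 against -0.58 to 1.78, and Sult2a6 was 4.38 against -0.47 to 1.48. In the same animal Cyp2c11 was -0.11, against 0.62 to 1.45 on the others, and Cyp2c13 was -0.37, against 0.67 to 1.40. Cyp3a2 (0.046) and Hsd3b5 (-0.34) in 3034 were likewise below all other arrays of that study. In the AMG B study 1 animal at 60 mg/kg on day 14, number 35, had Cyp2c12 at 4.47 and Cyp2c11 at -0.78, but A1bg at -0.21. This is a description of single animals with no test. The day 14 differences of these genes, such as 2.63 for A1bg and -0.55 for Cyp2c13 (adjusted p = 0.37 and 0.17), include 3034 with the other treated animals.

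**Figure D5:**
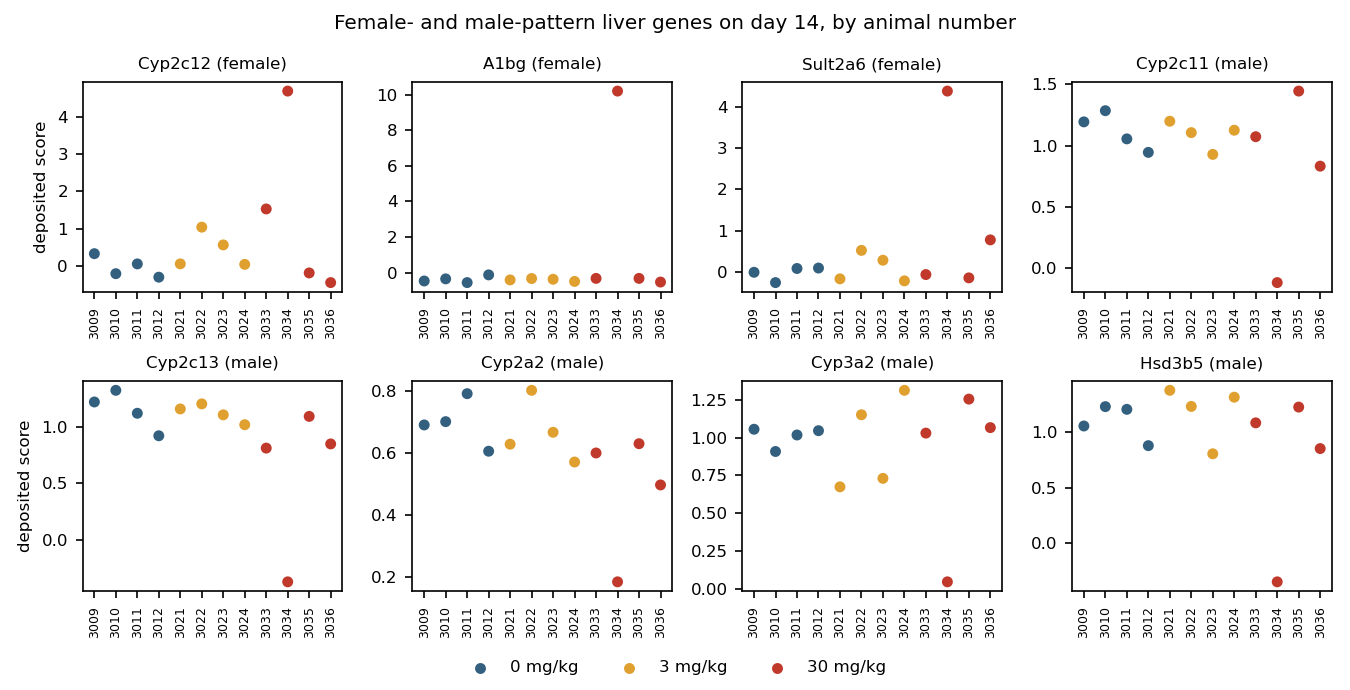
Deposited score (vertical axis, own scale in each panel) of 8 liver genes that differ by sex in rats, for each animal of the AMG A study on day 14 (horizontal axis, animal number), with 0, 3 and 30 mg/kg of AMG A from left to right in different colours. Animal 3034 is highest in Cyp2c12, A1bg and Sult2a6 and lowest in the 5 male-pattern genes.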

How the data were processed

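Transcripts were measured on Affymetrix arrays from biotin-labelled total RNA, per the labels' protocols (Qiagen RNeasy midi extraction, one-cycle labelling of 5 ug). The deposited values are scores: the authors standardised each probe set on a linear scale, jointly over 2 tables. Liver of the AMG A study fills the smaller of them (36 arrays, 15866 probe sets), with array medians of -0.774 to -0.729, and its levels were not tested against those of the larger (108 arrays). The sources used here do not give the signal summary, scaling or scan batches. Signal over background is unknown, and precision is limited by the number of arrays. Over all 15866 probe sets, named or not, the highest correlation between 2 of the 36 arrays was 0.792, so none held a copy of another.

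Probe sets were named through the platform annotation (12783 with 1 symbol, 312 with several, 2771 with none), and 12748 were updated by Entrez number to RefSeq, assembly GRCr8. Of 10411 genes, 1868 had several probe sets, and the one whose variance over the 108 arrays lay most between tissues was used. The limma package (version 3.58.1, in R 4.3.3 with data.table version 1.17.8) fitted scores of the 9 groups of dose and day by lmFit and contrasts.fit, then eBayes with trend. Each p is two-sided and adjusted over all genes by Benjamini and Hochberg's method, and genes under 0.05 were called. Tables and plots used Python 3.11.15, pandas 2.3.3, numpy 2.4.6 and matplotlib 3.10.9. Tested on simulated data for 30 against 0 mg/kg on day 14 (10411 genes, 50 changed per size), the fit recovered 22%, 94%, 100% and 100% of shifts of 2, 4, 6 and 10 residual SDs, with 8 false calls. The simulated scores were independent normal noise around each gene's mean, with the same spread on every array. They held no outlying animal and no array of low weight, so these rates need not hold for the real arrays.

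Members and lists were chosen with earlier results of these data known. Named were every called gene with 1 symbol that is not a placeholder, Cyp1a1, Vegfa, Kdr, Flt1 and Flt4, the called members of each list or else its 2 largest differences, the 3 smallest p of each other comparison and the 3 genes most like Cyp1a2. Tek, also named by that rule, was not analysed here. Alternatives were quantile normalization, the mean of a gene's probe sets, all probe sets, only the compared groups, array weights, eBayes without trend, a filter that kept genes past the 40th percentile of scores on 4 or more arrays and each animal left out. The plan allowed for log2 values, and scores were fitted as they stand.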

Additional observations from a re-analysis of the deposited data

Results flagged for a closer look

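In groups of 4 animals, the highest or lowest value was set apart when its gap to the nearest other was too large a share of the group's range by Dixon's test at the 95% level. Of 210 groups of a gene and dose on day 14, 11 met this, and chance gives about 1 in 20. Among the animals given 30 mg/kg, 3035 accounted for 4 of them. It was the lowest for Vegfa (-0.845, the others -0.651 to -0.621) and Fgf21, a liver hormone (-0.158, the others 0.623 to 0.777). It was the highest for Flt1 (-0.962, the others -1.20 to -1.17) and the macrophage marker Cd14 (1.32, the others -0.546 to -0.237). Animal 3034 was the highest for A1bg (10.2, the others -0.527 to -0.322), and 3036 was the lowest for the T cell gene Cd8a (-0.622, the others 0.128 to 0.152).

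Among controls, 3012 was the highest for Cyp1a1 (-0.275, the others -0.286 to -0.284) and the lowest for the elastase gene Cela1 (-0.462, the others -0.415 to -0.408). Control 3011 was the lowest for Kdr (-0.475, the others -0.0216 to 0.0599) and the highest for Acacb (0.745, the others -1.14 to -0.86). Control 3009 was the highest for Cuzd1 (-0.43, the others -0.446 to -0.445), a pancreas gene whose range in liver is very narrow.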

How the results depend on the processing

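For 30 against 0 mg/kg on day 14, the 38 called genes became 25 (24 shared) with the mean of each gene's probe sets, 19 (7 shared, 7 higher and 12 lower) with only the compared groups fitted and 168 (38 shared) with array weights. Quantile normalization gave 44 (28 higher, 16 lower, 37 shared), all probe sets 56, eBayes without trend 39 and the filter on low scores 37. Leaving out 1 animal gave 7 to 118. The causes were not tested, apart from the fewer samples or genes that some settings hold by construction. For 30 against 3 mg/kg (13 called), the count was 0 with only the compared groups, 8 with the filter and 1 to 35 with 1 animal left out. For 3 against 0 mg/kg (0 called) it was 1 with all probe sets, 6 with only the compared groups and 0 to 3 with 1 animal left out. For day 1 (36 called) it was 58 with all probe sets, 10 with only the compared groups, 71 with array weights, 16 with the filter and 9 to 75 with 1 animal left out. For day 4 (4 called) it was 11 with all probe sets, 13 with only the compared groups and 1 to 9 with 1 animal left out. For day 14 minus day 1 (0 called) it was 1 with array weights and 0 to 1 with 1 animal left out, and for day 14 minus day 4 (0 called) 0 to 1. The difference of Asrgl1 reversed to 0.613 with the mean of its probe sets. Of 1570 values of 105 named genes under these settings, 1370 kept direction and side of the threshold, 198 kept direction and lost the call, and 1, for Cd36, gained it. List medians under the same settings, added after seeing the data, moved by more than the spread between animals in 12 of 540 cases. No paired analysis was possible because no animal is in both groups compared, and animal numbers tie only organs of an animal. The unknown signal over background limits what low scores can show.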
